A study of Mus musculus with 4 samples.

Results

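The collagen genes described here are those whose array symbol reads Col, a number, the letter a and a number, on probes that are not control spots. They were chosen by name alone and numbered 43 of the 27617 genes on a whole mouse genome array, with 86 of its 41174 probes. A gene was tested where, for HFD or for LFD, both arrays showed 1 of its probes clearly brighter than background; 35 collagen genes and 17740 genes in all met this. The RNA came from white fat of female mice of the inbred laboratory strain C57BL/6, in a model of diet-induced obesity. From 8 weeks of age the mice received a high fat diet (HFD, High fat diet 32) or a low fat diet (LFD, CE2) for 18 weeks. Each diet had 2 samples, each made from the mixed tissue of 3 mice and hybridised to 1 single-colour array. The fat depot is not given, nor whether the 2 replicates of a diet were separate pools, so the p-values cover the spread among these 4 samples alone and that spread may be technical.

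Collagens are secreted proteins of the extracellular matrix in which chains wind around each other into a long triple helix, held together by a glycine at every turn of a glycine-X-Y repeat. Fibrillar collagens, such as types I, III and V, form the rope-like fibrils of connective tissue. Type IV collagen forms the sheet-like network of basement membranes, and FACIT collagens (fibril-associated collagens with interrupted triple helices) sit on the surface of fibrils. Type VI collagen makes beaded filaments near the cell surface. In white fat each adipocyte is wrapped in a basement membrane, and the surrounding matrix is remodelled as the tissue expands in obesity.

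In HFD fat, 9 of the 35 tested collagen genes rose and 4 fell. The genes that rose were the basement membrane chains Col4a1 and Col4a2, the type VI chains Col6a1 and Col6a2, the type V chains Col5a1 and Col5a2, the FACIT collagens Col12a1 and Col16a1, and Col18a1. Those that fell were the other basement membrane chains Col4a5 and Col4a6, together with Col8a2 and Col14a1. Each change was the difference of mean log2 signals, HFD minus LFD, tested with limma (two-sided) and Benjamini-Hochberg adjustment over all 26058 tested probes, at a threshold of 0.05. Each gene was represented by its brightest tested probe. The 9 genes that rose are 25.7% of the tested collagen genes, against 5.74% of all tested genes that rose, and the 4 that fell are 11.4%, against 5.61% of all tested genes. Of the 4, Col4a5 met the background filter through the LFD arrays alone, and another tested probe of Col4a6 did not fall. Both HFD arrays lay above both LFD arrays for 21 collagen genes and below them for 7, against 36.2% and 32.7% of all tested genes, and the diets overlapped for the remaining 7. The median log2 change was 0.26 over the tested collagen genes and 0.021 over all tested genes. Every call rests on 2 arrays per diet, and most or all of the 13 calls were lost whichever of the 4 arrays was left out. All 13 genes kept their direction in those fits, but this was fixed beforehand, because their diets did not overlap. A fit without the filter on dim probes called no gene, with 5609 of 27617 genes at an unadjusted p under 0.05.

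**Figure D1:**
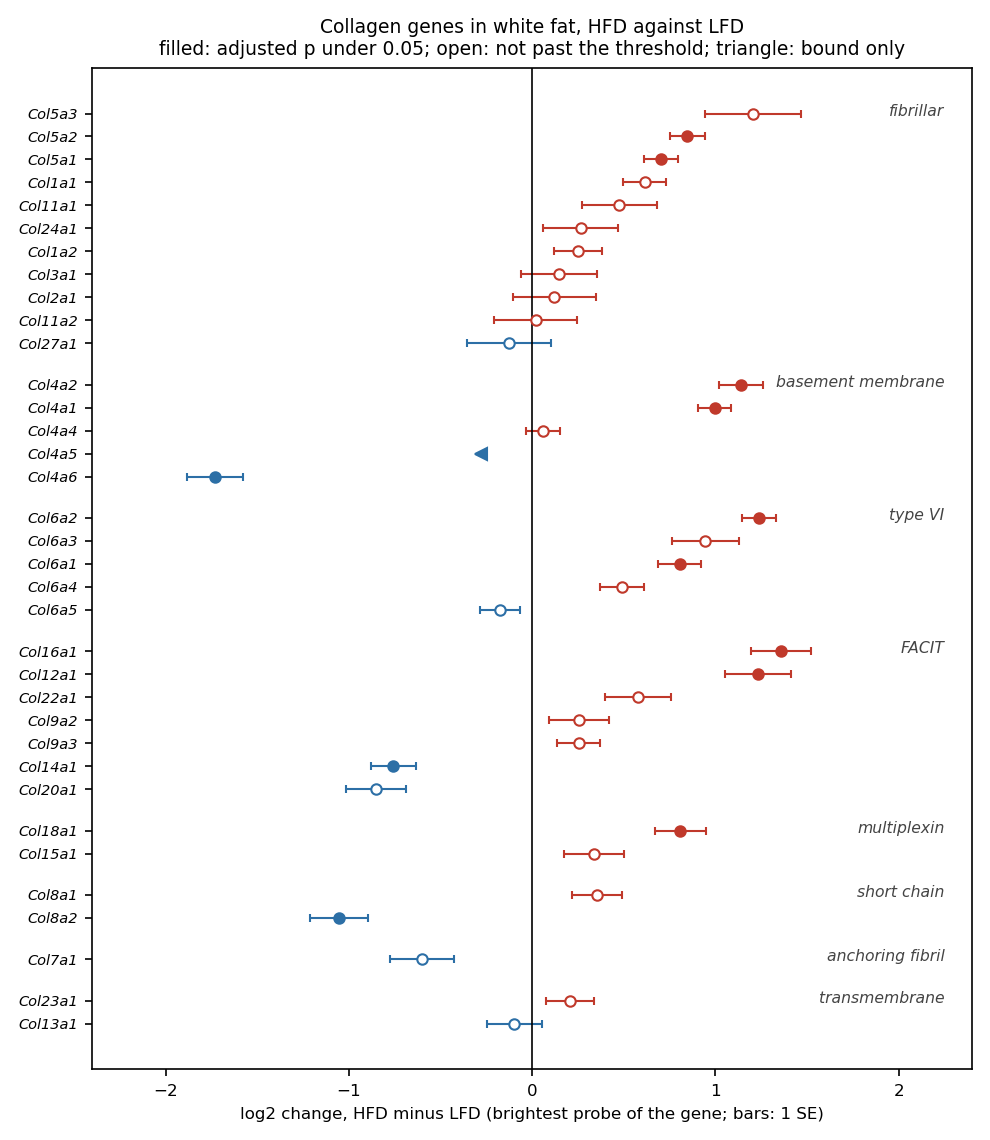
Log2 change of each tested collagen gene (HFD minus LFD, brightest probe, horizontal axis) by class, with bars of 1 standard error. Filled points passed an adjusted p of 0.05: 9 lie right of 0 and 4 left of it, and the basement membrane class holds both the genes Col4a1 and Col4a2 near 1 and Col4a6 at -1.73. The triangle is Col4a5, too dim on HFD for a measured change, drawn at its bound of 1.22-fold lower.

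Log2 signals over the tested probes correlated with r = 0.992 between the HFD arrays, 0.989 between the LFD arrays and 0.965 to 0.971 across diets. The HFD arrays had 27252 and 21314 probes well above background and the LFD arrays 26421 and 27940. Among collagen probes the numbers were 59 and 45 on the HFD arrays and 57 and 62 on the LFD arrays, so that HFD replicate 2 had the fewest. The adipocyte markers that define the labelled tissue were present: all 9 were tested, and Adipoq, which encodes the fat cell hormone adiponectin, had a relative signal of 167 and 177 on the HFD arrays and of 206 and 223 on the LFD arrays (log2 change -0.32, SE 0.10, limma adjusted p = 0.119). Here and below, a relative signal is a probe's brightness divided by the 75th percentile of its array, so that it compares arrays for 1 probe and does not rank genes. Where it is summed over a list, the brightest probes weigh most, and the sum does not measure a cell type. In whole tissue, fewer cells of a type and less RNA per cell cannot be told apart.

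The type IV chains are shown first, because genes of this class passed the test in opposite directions. Their genes lie in head-to-head pairs, and the windows around the transcription starts of the 2 pairs that passed are printed here from RefSeq (build GRCm38.p6, 250 bases before to 50 after the start, each on the strand of its gene). Capitals mark matches, on either strand, to CCAAT and to GGGCGG, a binding motif of Sp1-type factors; no match overlapped another. The windows are Col4a1 at chr8:11312777-11313076 (minus strand), Col4a2 at chr8:11312555-11312854 (plus strand), Col4a5 at chrX:141475169-141475468 (plus strand) and Col4a6 at chrX:141474027-141474326 (minus strand).
Col4a1: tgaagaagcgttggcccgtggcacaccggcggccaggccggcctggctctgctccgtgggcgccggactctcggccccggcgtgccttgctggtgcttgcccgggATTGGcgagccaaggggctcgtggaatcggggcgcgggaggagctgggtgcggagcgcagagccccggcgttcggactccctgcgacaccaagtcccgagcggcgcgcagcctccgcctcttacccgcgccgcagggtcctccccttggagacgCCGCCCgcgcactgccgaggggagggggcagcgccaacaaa
Col4a2: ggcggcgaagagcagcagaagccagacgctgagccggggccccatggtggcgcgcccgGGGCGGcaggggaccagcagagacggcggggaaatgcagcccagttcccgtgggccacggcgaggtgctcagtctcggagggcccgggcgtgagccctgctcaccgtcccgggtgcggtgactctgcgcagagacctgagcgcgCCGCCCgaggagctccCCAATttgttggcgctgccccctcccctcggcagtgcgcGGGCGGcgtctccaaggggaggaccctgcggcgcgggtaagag
Col4a5: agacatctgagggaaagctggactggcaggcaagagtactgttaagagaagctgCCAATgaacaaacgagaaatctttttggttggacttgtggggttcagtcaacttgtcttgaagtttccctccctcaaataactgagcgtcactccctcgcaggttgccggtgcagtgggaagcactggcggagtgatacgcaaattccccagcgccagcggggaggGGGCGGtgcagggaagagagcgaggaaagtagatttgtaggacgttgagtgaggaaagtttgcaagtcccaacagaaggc
Col4a6: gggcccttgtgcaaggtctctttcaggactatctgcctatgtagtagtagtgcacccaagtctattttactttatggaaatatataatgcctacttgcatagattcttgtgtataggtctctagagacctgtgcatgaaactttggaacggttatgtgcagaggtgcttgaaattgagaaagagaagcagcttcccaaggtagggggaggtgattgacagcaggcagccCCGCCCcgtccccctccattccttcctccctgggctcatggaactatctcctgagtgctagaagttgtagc

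The starts of Col4a1 and Col4a2 lie 21 bases apart, and their windows share 78 bases read on opposite strands. The starts of Col4a5 and Col4a6 lie 1343 bases apart, with 842 bases between the windows. RefSeq windows were matched for 35 of the 43 collagen genes, 38 windows in all. CCAAT occurred in 13 of these 38 windows (34.2%), against 37.4% of all 32851 windows. GGGCGG occurred in 23 of the 38 (60.5%), against 35.7% of all windows. These matches describe letters only.

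Both chains of the common basement membrane network rose. Col4a1 had a relative signal of 21.0 and 21.4 on the HFD arrays, against 10.8 and 10.5 on the LFD arrays (1.99-fold, log2 change 0.996, SE 0.092, limma adjusted p = 0.0181). Its other tested probe gave 12.7 and 14.01 on the HFD arrays and 7.82 and 7.73 on the LFD arrays (log2 change 0.78, adjusted p = 0.0287). Col4a2, whose product assembles with that of Col4a1, had a relative signal of 21.5 and 24.3 on the HFD arrays and of 9.83 and 10.9 on the LFD arrays (2.20-fold, log2 change 1.14, SE 0.12, adjusted p = 0.0212). The second probe of Col4a2 gave 8.37 and 9.95 on the HFD arrays and 3.68 and 4.29 on the LFD arrays (log2 change 1.20, adjusted p = 0.0251). All 4 probes of this pair passed. On none of them did the diets overlap, which held for 68.9% of all tested genes.

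Col4a5 and Col4a6, chains of a more restricted set of basement membranes, passed in the other direction. Col4a6 (probe at mm9 chrX:137599990-137600049, minus strand) had a relative signal of 0.363 and 0.282 on the HFD arrays, against 1.06 and 1.06 on the LFD arrays (3.32-fold lower, log2 change -1.73, SE 0.15, limma adjusted p = 0.0178). The second tested Col4a6 probe, at mm9 chrX:137601433-137601491, did not show this: it gave 0.377 and 0.406 on the HFD arrays and 0.299 and 0.365 on the LFD arrays (log2 change 0.24, SE 0.14, adjusted p = 0.277). Another Col4a6 probe, at mm9 chrX:137600816-137600875, was not tested, and was well above background on 1 LFD array and on no HFD array. The fall of Col4a6 therefore rests on 1 of its probes, and its log2 change was -0.74 (adjusted p = 0.0355) when its tested probes were averaged. Col4a5, its neighbour and the partner chain in the same trimers, was well above background on both LFD arrays and on neither HFD array. Its relative signal was 0.0291 and 0.0258 on the HFD arrays and 0.0895 and 0.0876 on the LFD arrays (adjusted p = 0.0139). Since the HFD level is only a bound, Col4a5 was at least 1.22-fold lower in HFD fat; for this bound, each HFD array entered at its dimmest signal that still counted as well above background. Under normexp background correction its log2 change was -0.58 (adjusted p = 0.0476).

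The third pair of type IV genes gave no call by the brightest probe. Col4a4 had a relative signal of 0.540 and 0.521 on the HFD arrays and 0.512 and 0.507 on the LFD arrays (log2 change 0.058, adjusted p = 0.681), and its sign turned when arrays were scaled to their median (-0.030). Its dimmer probe, well above background on 1 of the 2 HFD arrays, fell to 0.0647 and 0.0556 on the HFD arrays, against 0.126 and 0.130 on the LFD arrays (log2 change -1.09, SE 0.12, adjusted p = 0.0222). Col4a3, the remaining chain, had 3 probes and was not well above background with any of them on any array. Over the 5 tested type IV genes 2 rose and 2 fell, against 5.74% and 5.61% of all tested genes. Those that fell were Col4a5, above background on neither HFD array, and Col4a6, by 1 of its probes. The class median of 0.058 turned to -0.030 with median scaling and to -0.52 when a gene's probes were averaged.

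**Figure D2:**
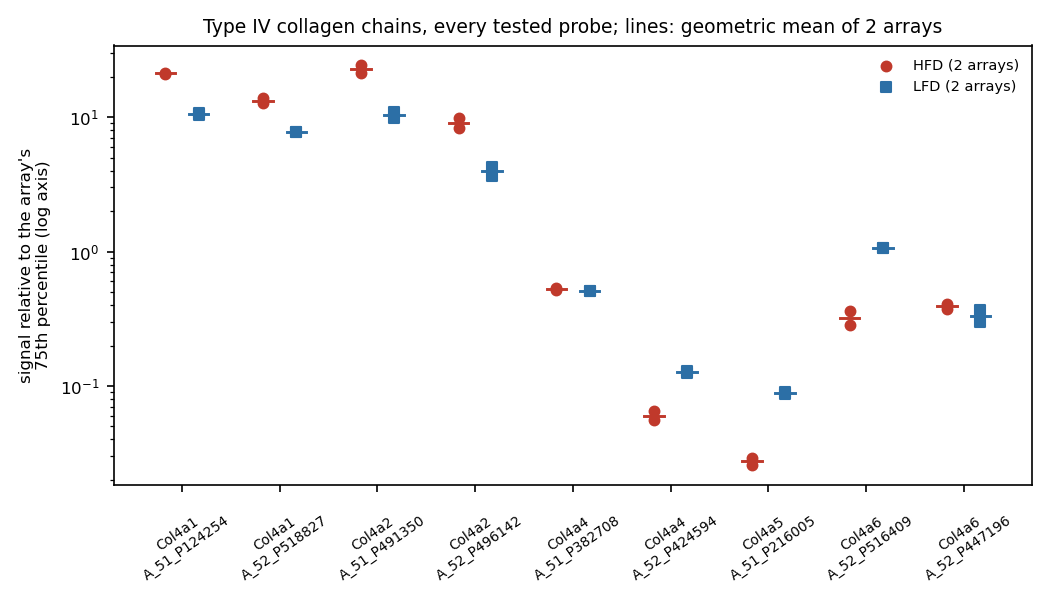
Relative signal (log axis) of every tested type IV probe on the HFD arrays (circles) and the LFD arrays (squares), with a line at the geometric mean of each diet. The Col4a1 and Col4a2 probes stand higher on HFD, Col4a5 (not above background on HFD) and 1 probe each of Col4a6 and Col4a4 stand lower, and the other Col4a6 and Col4a4 probes differ little.

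Of the 5 tested type VI genes, 2 rose and none fell, against 5.74% and 5.61% of all tested genes. The class median was 0.80, against 0.021 over all tested genes. Col6a2 had a relative signal of 4.61 and 4.45 on the HFD arrays, against 1.90 and 1.94 on the LFD arrays (2.36-fold, log2 change 1.24, SE 0.092, limma adjusted p = 0.0147). The other probe of Col6a2, at mm9 chr10:76064567-76064626, gave a smaller difference, with 1.96 and 2.06 on the HFD arrays and 1.27 and 1.56 on the LFD arrays (log2 change 0.51, adjusted p = 0.0872). Col6a1, which pairs with Col6a2 in the type VI trimer, had 12.6 and 11.4 on the HFD arrays, against 6.499 and 7.28 on the LFD arrays (1.75-fold, log2 change 0.80, adjusted p = 0.0328). Col6a3 completes that trimer, and a fragment cleaved from its protein is the adipokine endotrophin. Its signal was 27.0 and 22.8 on the HFD arrays and 14.8 and 11.3 on the LFD arrays (log2 change 0.94, SE 0.18, adjusted p = 0.0513). That probe narrowly missed the threshold, while a dimmer Col6a3 probe passed it, with 0.232 and 0.196 on the HFD arrays and 0.120 and 0.103 on the LFD arrays (log2 change 0.94, SE 0.14, adjusted p = 0.0359). For all 3 chains of this trimer the HFD arrays lay above the LFD arrays, as for 36.2% of all tested genes. Col6a4 had a log2 change of 0.49 (adjusted p = 0.0742) and Col6a5 of -0.18 (adjusted p = 0.314), and Col6a6 was not tested.

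The fibrillar class held 11 tested genes (median 0.26). Of these, 2 rose (18.2%) and none fell, against 5.74% and 5.61% of all tested genes. The 2 were chains of type V collagen, a minor component that starts and regulates the assembly of type I fibrils. A pair of type V probes lie within the triple-helical stretch, and their sequences are printed because they show the repeat itself; capitals mark the glycine codons, with the codons of X and Y in lower case between them. The Col5a1 probe maps to mm9 chr2:27842243-27844666 (plus strand) and the Col5a3 probe to mm9 chr9:20590066-20590795 (minus strand), spans longer than the 60-base probes.
Col5a1 probe A_52_P237371: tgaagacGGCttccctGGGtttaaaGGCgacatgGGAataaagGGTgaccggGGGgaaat
Col5a3 probe A_52_P503796: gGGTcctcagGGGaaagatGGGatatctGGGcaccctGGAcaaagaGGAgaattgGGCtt

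These probes hold 6 glycine codons in a row for Col5a1 and 7 for Col5a3. With a Col11a2 probe they are the 3 probes, of all 41174 on the array, with 6 or more.

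Col5a1 had a relative signal of 14.8 and 14.4 on the HFD arrays, against 9.19 and 8.77 on the LFD arrays (1.63-fold, log2 change 0.70, SE 0.093, limma adjusted p = 0.0288). The triple-helix probe of Col5a1 gave 0.250 and 0.196 on the HFD arrays and 0.138 and 0.129 on the LFD arrays (log2 change 0.73, SE 0.15, adjusted p = 0.0581). Col5a2 had 6.31 and 5.98 on the HFD arrays and 3.48 and 3.35 on the LFD arrays (1.80-fold, log2 change 0.85, adjusted p = 0.0234). Col5a3 showed the widest spread among these chains: 39.6 and 39.2 on the HFD arrays, against 13.3 and 21.9 on the LFD arrays (log2 change 1.21, SE 0.26, adjusted p = 0.0610). Its LFD replicates differed from each other, although both stayed below the HFD arrays. The triple-helix probe of Col5a3 passed, with 0.240 and 0.218 on the HFD arrays and 0.0940 and 0.131 on the LFD arrays (log2 change 1.04, SE 0.19, adjusted p = 0.0474).

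The brightest probes of the major fibril chains gave no call. Col1a1 had a relative signal of 56.8 and 51.1 on the HFD arrays, against 37.3 and 33.3 on the LFD arrays (log2 change 0.61, SE 0.12, limma adjusted p = 0.0508). Its 2 dimmer probes passed, with log2 changes of 0.77 (adjusted p = 0.0264) and 0.75 (adjusted p = 0.0346), so the 3 probes agreed in sign and differed only in their side of the threshold. Col1a2, the partner of Col1a1 in type I collagen, had 66.8 and 61.0 on the HFD arrays and 58.3 and 49.4 on the LFD arrays (log2 change 0.25, 95% interval -0.10 to 0.60, adjusted p = 0.248). Col3a1, which forms type III fibrils and co-assembles with type I, had 66.4 and 56.8 on the HFD arrays and 66.0 and 46.6 on the LFD arrays (log2 change 0.15, 95% interval -0.42 to 0.72, adjusted p = 0.644). The diets overlapped for Col3a1, and its 2 other probes had changes of 0.21 and -0.29, the last of them too dim on both HFD arrays to count as above background. Whether Col1a2 and Col3a1 differ from type V in their response was not tested. The other 5 fibrillar genes (Col2a1, Col11a1, Col11a2, Col24a1 and Col27a1) gave no call, with log2 changes of -0.13 to 0.47; that of Col11a2 (0.019) turned its sign with quantile and median scaling.

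FACIT collagens passed in both directions. Col16a1 had a relative signal of 15.0 and 12.6 on the HFD arrays, against 5.97 and 4.82 on the LFD arrays (2.56-fold, log2 change 1.36, SE 0.16, limma adjusted p = 0.0251), the largest rise among the tested collagen genes by brightest probe. Col12a1, which binds type I fibrils, had 0.189 and 0.146 on the HFD arrays and 0.0648 and 0.0770 on the LFD arrays (2.35-fold, log2 change 1.23, SE 0.18, adjusted p = 0.0327). Its diets did not overlap, as for 68.9% of all tested genes, and the probe was well above background on all 4 arrays. With normexp the change of Col12a1 was smaller, 0.72 on the log2 scale (adjusted p = 0.010). Col14a1, the close relative of Col12a1 that also binds fibrils, fell to 3.81 and 3.68 on the HFD arrays, against 6.86 and 5.84 on the LFD arrays (1.69-fold lower, log2 change -0.76, SE 0.12, adjusted p = 0.0383). Col20a1 had 0.0770 and 0.0926 on the HFD arrays and 0.169 and 0.138 on the LFD arrays (log2 change -0.85, adjusted p = 0.0505, and -0.21 with normexp). Its probe was well above background on 1 HFD array. The class median was 0.26 over 7 tested genes. Of these, 2 rose (28.6%) and 1 fell (14.3%), against 5.74% and 5.61% of all tested genes. Col22a1 (0.58), Col9a2 (0.26) and Col9a3 (0.25) gave no call, and Col9a1 and Col19a1 were not tested.

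The remaining classes held 7 tested genes (median 0.21). Of these, 1 rose and 1 fell (14.3% each), against 5.74% and 5.61% of all tested genes. Col18a1, a basement membrane multiplexin whose cleaved end is the vessel inhibitor endostatin, had a relative signal of 20.5 and 21.0 on the HFD arrays, against 10.6 and 13.2 on the LFD arrays (1.75-fold, log2 change 0.81, SE 0.14, limma adjusted p = 0.0425). A second Col18a1 probe gave a log2 change of 0.77 (adjusted p = 0.0638). Col15a1, the related multiplexin, had 6.76 and 7.18 on the HFD arrays and 4.82 and 6.30 on the LFD arrays (log2 change 0.34, adjusted p = 0.221). The short-chain collagens form a hexagonal network in some basement membranes, and only Col8a2 passed among them. It had 0.292 and 0.224 on the HFD arrays, against 0.525 and 0.536 on the LFD arrays (2.08-fold lower, log2 change -1.05, SE 0.16, adjusted p = 0.0348), and its change with normexp was -0.57 (adjusted p = 0.019). Col8a1, its usual partner, had 3.18 and 3.31 on the HFD arrays and 2.82 and 2.297 on the LFD arrays (log2 change 0.35, adjusted p = 0.160). Col7a1, of the anchoring fibrils, had a log2 change of -0.60 (adjusted p = 0.0986), and the transmembrane collagens Col23a1 and Col13a1 had 0.21 and -0.097. A second Col23a1 probe passed, with a log2 change of 0.51 (adjusted p = 0.0472). Col10a1, Col17a1, Col25a1 and Col28a1 were not tested.

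**Figure D3:**
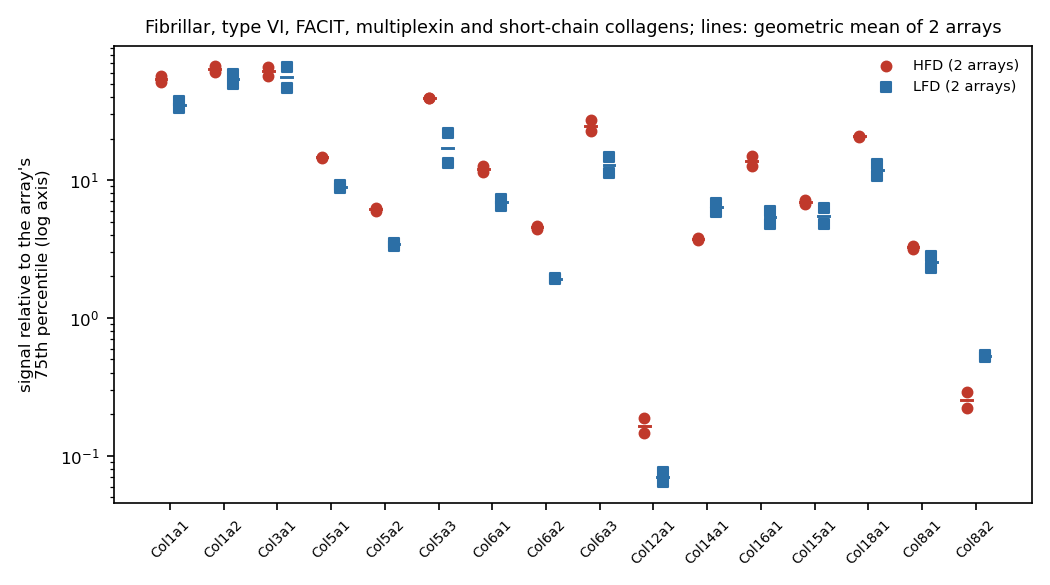
Relative signal (log axis) of 16 selected fibrillar, type VI, FACIT, multiplexin and short-chain collagen genes on the HFD arrays (circles) and the LFD arrays (squares), brightest probe of each gene, with a line at the geometric mean of each diet. Col14a1 and Col8a2 stand lower on HFD, the 2 diets overlap for Col3a1, and the other 13 genes drawn stand higher on HFD; Col20a1, Col6a5 and the other genes of these classes are not drawn.

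The same arrays can also be counted by probe, without choosing a probe for each gene. The tested probes include the brightest ones, so this count is no separate check on the calls. Of the 56 tested collagen probes, 16 rose and 5 fell, against 5.43% of all tested probes that rose and 5.27% that fell. For 5 genes (Col1a1, Col5a3, Col6a3, Col23a1 and Col4a4) a dimmer probe passed where the brightest one did not. Several tested probes were available for 18 collagen genes; they disagreed in sign for 3 of these (Col3a1, Col4a4 and Col4a6), and for 1855 of 5984 such genes on the whole array. The 8 untested genes had no probe that met the background criterion in either diet.

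**Figure D4:**
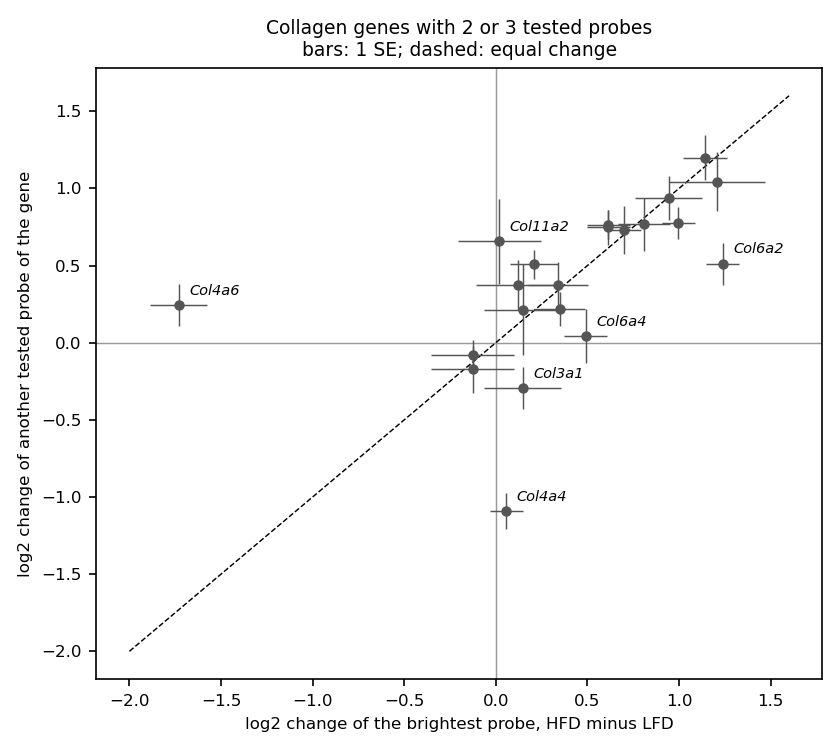
Log2 change of the brightest probe (horizontal axis) against that of another tested probe of the same gene (vertical axis), HFD minus LFD, with bars of 1 standard error and a dashed line of equal change. Most of the 18 genes lie near the line; Col4a6 (-1.73 and 0.24) and Col4a4 (0.058 and -1.09) lie far from it.

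Of 18 tested genes that modify and fold collagen chains, 2 rose and none fell (median 0.25), and 88.9% gave no call, against 88.6% of all tested genes. Colgalt1, which attaches galactose to hydroxylysine, had a relative signal of 3.33 and 3.03 on the HFD arrays, against 1.85 and 1.80 on the LFD arrays (log2 change 0.80, SE 0.10, limma adjusted p = 0.0269). Plod1, a lysyl hydroxylase, had 1.64 and 1.63 on the HFD arrays and 0.995 and 1.004 on the LFD arrays (log2 change 0.71, adjusted p = 0.0267). P3h2 (0.52, adjusted p = 0.0570) and P4hb (0.42, adjusted p = 0.0665) gave no call. Nor did P4ha1, a prolyl hydroxylase subunit (-0.30, adjusted p = 0.174), the collagen chaperone Serpinh1 (0.20, adjusted p = 0.288) or Plod2 (0.0027, adjusted p = 0.997), whose LFD replicates were 1.25 and 0.440.

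Of 12 tested genes for propeptide processing and fibril assembly, 2 rose (16.7%) and 1 fell (8.33%), with a median of 0.18. The shares over all tested genes were 5.74% and 5.61%. Sparc, a matrix protein that binds collagens including type IV, had a relative signal of 92.4 and 99.97 on the HFD arrays, against 45.1 and 47.4 on the LFD arrays (2.08-fold, log2 change 1.06, SE 0.10, limma adjusted p = 0.0192). Pcolce2, an enhancer of the procollagen C-proteinase, rose (log2 change 0.81, adjusted p = 0.0431), while Bmp1, that proteinase, had a change of 0.077 (adjusted p = 0.726). Fmod, a small proteoglycan on fibrils, fell to 0.579 and 0.471 on the HFD arrays, against 1.01 and 1.16 on the LFD arrays (log2 change -1.05, adjusted p = 0.0322), and the related Dcn had -0.37 (adjusted p = 0.0756). None of the 5 lysyl oxidase genes, which crosslink collagen, passed (median 0.31), and 88.6% of all tested genes gave no call. Lox itself had 1.14 and 0.855 on the HFD arrays and 0.630 and 0.807 on the LFD arrays (log2 change 0.47, adjusted p = 0.196). Loxl4 (1.13), Loxl3 (-0.24) and Loxl2 (0.31) had adjusted p-values of 0.118, 0.204 and 0.317.

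Of 9 tested collagen receptors 2 rose (22.2%) and none fell, against 5.74% and 5.61% of all tested genes. The list median was -0.27, on the other side of 0. Mrc2, the receptor that takes up collagen for breakdown, had a relative signal of 4.18 and 4.45 on the HFD arrays, against 1.16 and 0.873 on the LFD arrays (4.28-fold, log2 change 2.10, SE 0.17, limma adjusted p = 0.0164). Lair1, an inhibitory receptor of leukocytes, rose by a log2 change of 1.15 (adjusted p = 0.0496), and Ddr2 (-0.46, adjusted p = 0.0566) and Itga11 (-0.84, adjusted p = 0.0616) gave no call. Of 10 tested degradation genes, 3 rose (30.0%) and 1 fell (10.0%), against 5.74% and 5.61% of all tested genes. Their median was 0.29. Timp1, an inhibitor of matrix metalloproteinases, had 4.34 and 3.14 on the HFD arrays, against 0.917 and 0.646 on the LFD arrays (4.80-fold, log2 change 2.26, adjusted p = 0.0231). Ctsk, a protease that cuts the triple helix, rose by a log2 change of 1.31 (adjusted p = 0.0363), and the collagenase Mmp13 rose by 0.89 (adjusted p = 0.0443). The gelatinase Mmp9 fell to 0.264 and 0.409 on the HFD arrays, against 0.962 and 0.883 on the LFD arrays (log2 change -1.49, adjusted p = 0.0384). The fibroblast proteases Mmp2 (-0.044, adjusted p = 0.893) and Mmp14 (0.15, adjusted p = 0.462) gave no call.

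Markers of fibroblasts, vessels and adipocytes were read beside the chains. Of 11 fibroblast and preadipocyte markers none rose and 2 fell (18.2%), against 5.74% and 5.61% of all tested genes. Their median was -0.098, with a summed relative signal of 102 to 114 on the HFD arrays and 110 to 132 on the LFD arrays. Pdgfra, a receptor of fibroblasts and fat progenitors, fell to 1.54 and 1.52 on the HFD arrays, against 2.45 and 2.53 on the LFD arrays (log2 change -0.70, SE 0.092, limma adjusted p = 0.0276), and Dpp4 fell by 0.82 on the log2 scale (adjusted p = 0.0307). Fap (0.46), which is also on the degradation list, and Pi16 (-0.88) gave no call. None of 10 endothelial markers passed (median 0.059), and 88.6% of all tested genes gave no call. Kdr and Emcn lay lower on both HFD arrays, with log2 changes of -0.36 (adjusted p = 0.108) and -0.39 (adjusted p = 0.128), and Esam and Pecam1 lay higher, with 0.23 (adjusted p = 0.299) and 0.19 (adjusted p = 0.344). None of 8 mural cell markers passed either (median -0.14), and those of smallest p were Myh11 (-0.69), Cspg4 (-0.34), Kcnj8 (-0.23) and Rgs5 (0.17), with adjusted p-values of 0.196 to 0.362. Of 9 adipocyte markers none rose and 1 fell (11.1%), against 5.74% and 5.61% of all tested genes, with a median of -0.14. The gene that fell was the hormone gene Retn (-0.90, adjusted p = 0.0281). Lep had a log2 change of 2.18 that did not pass (adjusted p = 0.0729), nor did Cfd (-0.43) or Pnpla2 (-0.38).

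Markers of 3 other cell types moved with the diets. Of 8 macrophage markers 7 rose (87.5%, median of the list 1.53), against 5.74% of all tested genes. The summed relative signal of the 8 was 279 to 288 on the HFD arrays and 162 to 178 on the LFD arrays. That sum does not describe the 7 that rose. It is mostly the bright probe of Lyz2, the marker that did not pass (limma adjusted p = 0.0817), with 182 and 198 on the HFD arrays and 149 and 135 on the LFD arrays. Adgre1, which encodes the macrophage antigen F4/80, had 29.0 and 28.9 on the HFD arrays, against 9.71 and 8.84 on the LFD arrays (log2 change 1.65, SE 0.10, limma adjusted p = 0.0137), and Trem2, Cd68 and Tyrobp rose by 2.95, 2.28 and 1.72. All 8 mesothelial markers fell (median -1.74), against 5.61% of all tested genes. Their sum was 9.68 to 12.4 on the HFD arrays and 31.6 to 33.9 on the LFD arrays. Muc16, Wt1, Upk3b and Krt7 fell by 1.72, 1.48, 1.75 and 2.24 on the log2 scale. Of 9 tested epithelial markers 7 fell (77.8%), against 5.61% of all tested genes. Cdh1, 1 of the 7, met the background filter through the LFD arrays alone. The list median was -2.72, or -2.01 with Cdh1 at its bound. The sum was 2.56 to 3.02 on the HFD arrays and 18.2 to 19.5 on the LFD arrays. Krt5 (-3.43), Krt18 (-2.72), Upk3a (-4.57) and Wfdc2 (-5.23) fell, Upk3a and Wfdc2 with 1 HFD array well above background. Cdh1 was above background on neither and was at least 2.92-fold lower on HFD, and Epcam was not tested. Csn3 (0.40, adjusted p = 0.154) and Krt14 (0.26, adjusted p = 0.433) had the opposite sign and gave no call. Apart from Cdh1 on HFD, every tested marker in these 3 lists was well above background on at least 1 array of each diet. The part of macrophage, mesothelial and epithelial cells in the collagen values was not tested.

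**Figure D5:**
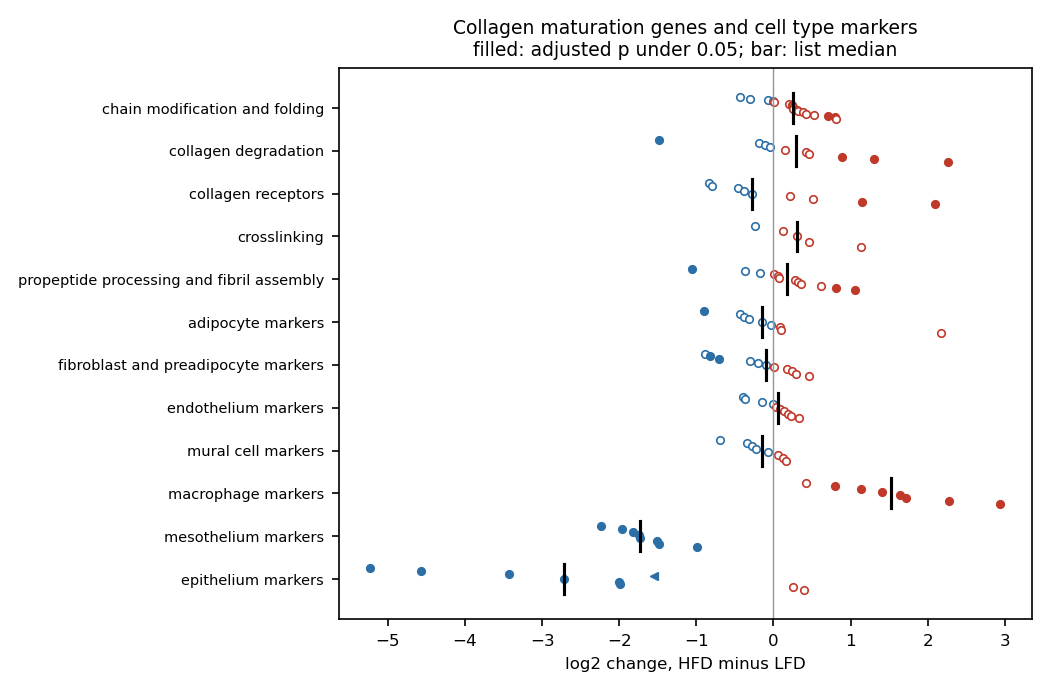
Log2 change (HFD minus LFD, horizontal axis) of genes that process, bind or degrade collagen and of cell type markers, one point per tested gene, filled where the adjusted p was under 0.05, with a bar at each list's median. Macrophage markers lie right of 0 (median 1.53) and mesothelial markers left of it (median -1.74). Of the epithelial markers (median -2.72) 7 lie left of 0, with Cdh1 drawn as a triangle at its bound, and 2 lie right of it. The lists that act on collagen centre between -0.27 and 0.31.

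No marker of skeletal muscle passed among 7 tested, and 88.6% of all tested genes gave no call. The median of this list was 0.45, against 0.021 over all tested genes. The muscle markers of smallest p were Tnnt3 (0.87), Ckm (0.45), Tnni2 (0.63) and Mylpf (0.27). The cartilage and bone list, kept because Col2a1, Col9a2 and Col11a2 are known from cartilage, had 2 genes that rose and 1 that fell among 5 tested. Cnmd, an angiogenesis inhibitor of cartilage, had a relative signal of 0.168 and 0.190 on the HFD arrays, against 0.0461 and 0.0635 on the LFD arrays (log2 change 1.72, limma adjusted p = 0.0231). Comp, which binds collagen fibrils, rose by a log2 change of 1.44 (adjusted p = 0.0433), and the transcription factor Sox9 fell by 1.63 on the log2 scale (adjusted p = 0.0412). The Cnmd probe was well above background on 1 LFD array, and the Sox9 probe on 1 HFD array. Acan, a cartilage proteoglycan, had a log2 change of -1.22 that did not pass (adjusted p = 0.172). Col2a1, whose diets overlapped, had 3.47 and 2.69 on the HFD arrays and 3.32 and 2.37 on the LFD arrays (log2 change 0.12, adjusted p = 0.728).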

How the data were processed

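RNA levels were measured on 4 one-colour arrays, 2 per diet, on 1 slide and in 1 scan, from 500 ng of labelled RNA per sample. The linear intensities are scanner output that the authors deposited, background-subtracted and detrended within each array by Feature Extraction 11.0.1.1 per the file headers (11.5.1.1 per the submitters' processing notes). In the value table that the authors deposited, each value is the ratio of a processed signal to a constant close to its array's 75th percentile, as found by division; it is linear, uncentred and runs with signal, with column medians of 0.130 and 0.131 for HFD and 0.117 and 0.127 for LFD. The deposited spot flags, coded 0 or 1, mark probes well above background and outlier spots (60 to 115 per array, left out). No spot was saturated, and the other flags are described per the file headers.

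Processed signals were divided by their array's 75th percentile and taken to log2, and spots of a probe were averaged. A probe was tested where, for HFD or for LFD, at least 0.5 of its spots were well above background on each of the 2 arrays. The diets were compared with limma's lmFit and eBayes, two-sided (limma 3.58.1, R 4.3.3, and the package data.table in its version 1.17.8), with 2 residual and 2.24 prior degrees of freedom; the procedure was tested on simulated data. Symbols were updated by RefSeq accession (27668 probes matched; 73 of 86 collagen probes, all with the same symbol); coordinates are those of the files (mm9), and no annotation of that build was used. The precision is limited by the number of arrays. Named genes were every collagen gene past the threshold, a panel of chains and of genes acting on them, and, of each list, the 4 genes of smallest p. Some other collagen genes and list members were named besides. The members, lists and tests were chosen with earlier results of these data known. The 14 alternatives were background correction, 2 scalings, the deposited table, 2 filters, outlier spots, probe averaging, the variance prior, a replicate block and each array left out. The slide was not a block because the arrays shared it. One list of cell type markers is not reported here.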

Additional observations from a re-analysis of the deposited data

How the results depend on the processing

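All 13 genes that passed kept their direction in every alternative in which they had a value, and Col4a5 had none with the filter on all 4 arrays. In the fits with an array left out this was fixed beforehand, because the diets did not overlap for any of the 13. Sizes were less stable: with normexp, changes were 0.72 for Col12a1, -0.57 for Col8a2 and -0.58 for Col4a5, and with averaged probes -0.74 for Col4a6. Against 9 genes higher and 4 lower, the counts were 12 and 4 with normexp, 9 and 5 with quantile and with median scaling, 9 and 4 with the deposited table and with outlier spots kept, 13 and 3 with probes well above background on all 4 arrays, 12 and 5 with the trend and robust options, and 10 and 4 with averaged probes. They were 0 and 0 with no filter on dim probes, where the limma fit called 0 of 27617 genes. With 1 array left out they ranged from 0 to 2 higher and 0 to 1 lower; the lone array was assumed to vary like the other diet. Over all genes 1019 rose and 995 fell, 852 and 1334 with median scaling, 971 and 1235 with quantile scaling, 1618 and 1239 with normexp, 1597 and 1308 with the stricter filter, 1826 and 1808 with the trend and robust options, and 10 and 9 or 9 and 9 without an HFD replicate.

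Same-numbered samples shared only a number: their deviations from the diet means correlated at -0.0046. With the replicate number as a block, 3 collagen genes were higher and 2 lower, as against 220 and 208 over all genes.

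The median over collagen genes was 0.30 with normexp and with the stricter filter, 0.18 with median scaling, and 0.32 to 0.38 with an array left out. The type VI median was 0.84 with normexp, 0.73 with quantile and 0.72 with median scaling, 0.65 with no filter, and 0.72 to 0.88 with an array left out. The basement membrane median was -0.030 with median scaling, 0.53 with the stricter filter, 0.20 with no filter, -0.52 with averaged probes, and 0.032 to 0.084 with an array left out. The fibrillar median was 0.18 with median scaling, 0.34 with averaged probes, and 0.18 to 0.52 with an array left out. The FACIT median was 0.74 with the stricter filter, which left out genes, and 0.14 to 0.43 with an array left out. The remaining classes ranged from 0.069 to 0.34 with an array left out.

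Signs turned only among genes without a call. Col11a2 was -0.064 with quantile and -0.069 with median scaling, and ranged from -0.27 to 0.31 with an array left out. Col4a4 was -0.030 with median scaling and -0.52 with averaged probes, where its probes disagree. With an array left out, Col2a1 ranged from -0.12 to 0.36, Col27a1 from -0.40 to 0.15, Col13a1 from -0.26 to 0.070 and Col3a1 from -0.10 to 0.40. Apart from the named constructions, the cause was not tested.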

Other observations

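Several collagens best known from tissues other than fat were detected without a call. Col11a1, a cartilage fibril chain, had a relative signal of 0.104 and 0.0965 on the HFD arrays and of 0.0603 and 0.0866 on the LFD arrays (log2 change 0.47, limma adjusted p = 0.187), and was well above background on 1 HFD array. Col22a1, a FACIT collagen of tissue junctions, had 0.103 and 0.113 on the HFD arrays and 0.0621 and 0.0839 on the LFD arrays (log2 change 0.58, adjusted p = 0.111), likewise above background on 1 HFD array. For both genes the HFD arrays lay above the LFD arrays, as for 36.2% of all tested genes. Col7a1, which anchors the epidermis to the dermis, had 0.366 and 0.458 on the HFD arrays and 0.686 and 0.563 on the LFD arrays. Its HFD arrays lay below, as for 32.7% of all tested genes.

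Col9a2 had 0.124 and 0.157 on the HFD arrays and 0.108 and 0.126 on the LFD arrays, and Col13a1 had 0.123 and 0.131 on the HFD arrays and 0.152 and 0.121 on the LFD arrays. The diets overlapped for both. Col24a1 overlapped too, with 0.247 and 0.219 on the HFD arrays and 0.162 and 0.231 on the LFD arrays, its LFD replicates lying further apart than the diet means (log2 change 0.26, adjusted p = 0.405).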
